A study of Mus musculus with 12 samples.

Results

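Gene expression was compared between normal livers of mice labelled Setd2 knockout (KO) and wild type (WT), the 6 libraries of the series made from liver without a carcinogen. These 6 are all the normal liver libraries among the 12 of the series, 3 of each genotype, and were chosen by their titles and tissue labels alone. The other 6 libraries are liver tumors of the same genotypes, 3 of each, from mice given 1 dose of the carcinogen diethylnitrosamine (DEN) at 25 mg/kg when 2 weeks old, and they enter only the filter on low values and 1 test at the end. Per the labels, the normal livers came from male mice aged 8 months, with no DEN in either genotype. Titles call the knockout cKO, which the labels do not spell out, and no label names the deleted exons, a Cre driver or the cells that lost the gene. Nothing in the labels says whether each library came from its own animal, so p-values measure the spread between these libraries, which may in part be technical. Libraries are called WT 1 to 3 and KO 1 to 3 after the replicate number in their titles.

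SETD2 is the enzyme that adds the trimethyl mark to lysine 36 of histone H3 (H3K36) while it travels with elongating RNA polymerase II, so the mark lies over the bodies of transcribed genes. Readers of the mark act in DNA methylation, splicing and DNA repair. Hepatocytes, the main cell of the liver, secrete most plasma proteins, answer cytokines such as IL-6 with acute phase proteins, and run the bile acid, cholesterol and drug metabolism of the body. These programs give the order of the results below.

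Values are FPKM, fragments per kilobase of transcript and per library size, analyzed as log2(FPKM + 1). The added 1 shrinks differences of genes with low FPKM. An entry was tested when its FPKM was 1 or more in 3 or more of the 12 libraries, which left 11671 entries, and it was called at a limma adjusted p below 0.05. Summed FPKM ran from 641848 to 719538 over the 6 livers, and 10233 to 10591 entries per liver reached an FPKM of 1. Read depth is not in the files, so no counting error can be given. Pearson's r across genes was 0.977 to 0.979 within KO, 0.982 to 0.986 within WT and 0.937 to 0.975 between the genotypes. Hepatocyte markers were abundant in every liver, with Ttr (transthyretin) at 6482 to 9797 and Asgr1 (an asialoglycoprotein receptor subunit) at 489 to 1086. Alb, the albumin gene, is listed at 0 in all 6 livers and Gapdh, a glycolytic enzyme, at 1.34 at most, so neither entry can be used.

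Of the 11671 entries 2113 were called (18.1%), 1089 higher in KO (9.33%) and 1024 lower (8.77%). The median difference over all entries, KO minus WT, was 0.03, and 471 called entries (4.04%) changed by 2-fold or more on the log2(FPKM + 1) scale. The number called depends on single libraries: it was 1964, 781 and 654 without KO 1, KO 2 or KO 3, and 1174, 621 and 240 without WT 1, WT 2 or WT 3. All 2113 kept their direction in each of these 6 fits, which reuse the libraries that selected the entries and so are no independent check. A group of 212 genes, 120 higher and 92 lower, was called in the full fit and again in every one of the 6, and these are marked below as called without each library. KO and WT values did not overlap in 42.6% of all entries.

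Setd2 itself (chromosome 9, 110532597 to 110618633, GRCm38) was lower in the KO livers. Its FPKM was 4.84, 3.84 and 4.70 in WT 1 to 3 against 1.66, 1.93 and 1.32 in KO 1 to 3, a difference of -1.05 ± 0.14 (SE; 95% interval -1.39 to -0.72; limma, adjusted p = 0.0108). All KO values lay below all WT values, and the gene was called without each library. An exact permutation of 3 against 3 libraries cannot give a two-sided p below 0.1. FPKM over the whole gene would also count reads outside a deleted part and from any cells that kept the gene. Neither was tested, and the labels describe neither. Of the 10 tested neighbours of Setd2, 5 on each side, Elp6 (2.44 to 3.86) and Tmie (1.99 to 10.1) rose and the other 8 were not called.

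**Figure D1:**
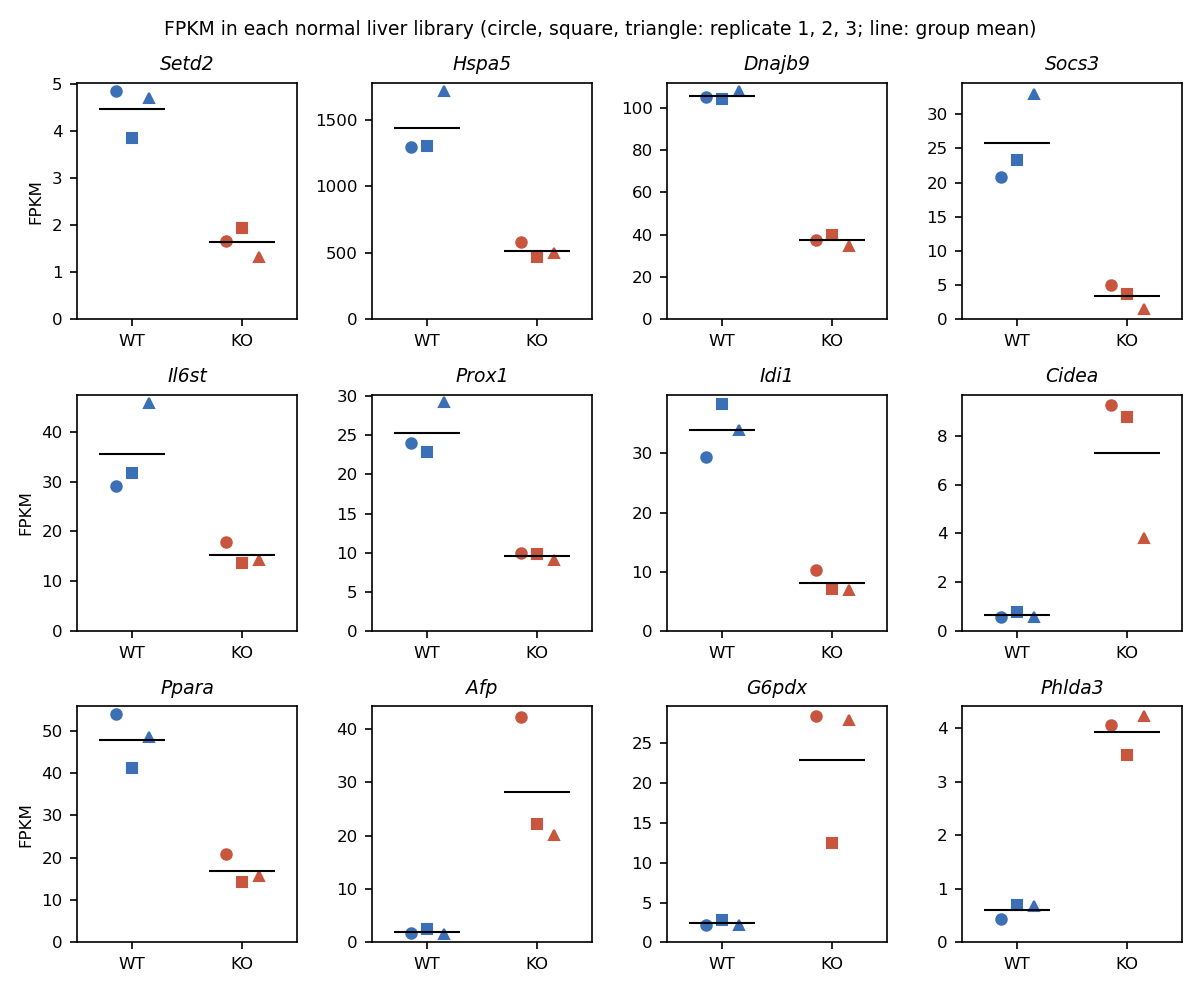
FPKM of 12 genes in each normal liver library, with WT in blue, KO in red, symbols for the replicate number and a line at the group mean; each vertical axis starts at 0. All 12 are genes called without each library, so the lack of overlap in the panels comes with their choice. Over all entries 42.6% did not overlap. Setd2 lies between 3.84 and 4.84 in WT and between 1.32 and 1.93 in KO.

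Genes of H3K36 methylation, Setd2 included, were called about as often as all entries (18.5% against 18.1%). Of 27 tested writers, erasers and readers of the mark, 4 fell, Setd2 among them, 1 rose, and the median was -0.23, against 0.03 over all entries and a share of 8.77% called lower. Whsc1l1 (Nsd3, which dimethylates H3K36) was 18.4, 18.5 and 21.6 in WT 1 to 3 against 11, 9.69 and 9.85 in KO 1 to 3, a difference of -0.88 ± 0.12 (limma, adjusted p = 0.0111). It was called without each library. Ash1l, another dimethylase, went from 6.63 to 3.97 and Setd5, a SET domain protein, from 5.57 to 3.50 in mean FPKM. Phf1, which binds methylated H3K36 through its Tudor domain, rose from 5.75 to 9.58. Dnmt3a, the DNA methyltransferase that reads H3K36 methylation, had means of 2.14 and 1.44 and did not pass (-0.37, limma adjusted p = 0.0782), and Nsd1 did not either (-0.26, adjusted p = 0.212). Without a single library the falling members numbered 2 or 3, and Setd2 and Whsc1l1 are the members called in every such fit. With each library's trend with transcript length removed 2 of 25 placed members fell in place of 5, and the median was -0.07 in place of -0.23.

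Factors of RNA polymerase II elongation changed in both directions, with 7 of 34 lower and 3 higher. That is 29.4% called, against 18.1% of all entries. Cdc73, a subunit of the PAF1 complex that travels with the polymerase, was 3.24, 3.01 and 3.81 in WT against 1.71, 1.5 and 1.32 in KO (-0.79 ± 0.13; limma, adjusted p = 0.0140). Ell2, a component of the super elongation complex, fell from a mean of 37.3 to 11.9, and Ccnt1, the cyclin T1 of the elongation kinase P-TEFb, from 3.42 to 1.21. Hexim1, an inhibitor of P-TEFb, rose from 11.2 to 24.9, Nelfe, a subunit of the negative elongation factor, from 15.9 to 26.6, and Tcea2, a form of the cleavage factor TFIIS, from 0.508 to 1.76. The largest subunit of the polymerase, Polr2a, had means of 12.1 and 14 and was not called. Its other row, with means of 2.78 and 7.43, was not called either (1.32, limma adjusted p = 0.0614). Falling members numbered 4, 2 and 1 without KO 1, 2 or 3 and 3, 2 and 1 without WT 1, 2 or 3. With the length trend removed 4 of 32 placed members fell in place of 7, and the median was -0.09 in place of -0.20.

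Among splicing factors 10 of 55 fell and 2 rose, with a median of -0.21. That is 21.8% called, not far from the 18.1% of all entries. Sf1, which recognizes the branch point, was 33.3, 39.9 and 36.1 in WT against 23.3, 19.3 and 22.8 in KO (-0.72 ± 0.12; limma, adjusted p = 0.0165). Its other row, with means of 1.1 and 0.641, was not called (-0.35, adjusted p = 0.0677). The RNA-binding proteins Hnrnph1 (46.5 to 29.4), Hnrnph2 (22.9 to 12.2), Srsf7 (35.6 to 22.1) and Ptbp1 (53.4 to 29.5) fell in mean FPKM, while Hnrnpl (49.3 to 72.8) and the splicing kinase Clk1 (28.2 to 44.3) rose. The falling members numbered 8, 1 and 1 without KO 1, 2 or 3 and 4, 0 and 0 without WT 1, 2 or 3. In all 6 of those fits the list's median stayed between -0.28 and -0.21.

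The unfolded protein response (UPR) is the program by which a cell matches the folding capacity of the endoplasmic reticulum (ER) to the load of secreted proteins. Its sensors are Ern1 (IRE1), Eif2ak3 (PERK) and Atf6, and its output includes chaperones, disulfide isomerases and the degradation machinery of the ER. A short promoter sequence, the ER stress response element, is known to bind the factors NF-Y and ATF6. Of 39 tested UPR genes 18 fell, 1 rose and 20 were not called, with a median of -0.59, against 8.77% of all entries called lower.

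The element, written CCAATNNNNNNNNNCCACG and searched on both strands from 250 bases before to 50 after each start, was present in 39 of 32851 RefSeq promoters (0.119%; GRCm38.p6). It was present in the promoters of 14 of the 8005 tested genes with a promoter in that table, of which 4 were called lower, 0 higher and 10 not called. A promoter was found for 29 of the 39 UPR genes, below the 80% set as the least for describing a list as a whole, so the matches are given gene by gene. The 4 genes called lower are printed first because they are the falling genes that hold the element, and Hsp90b1 and Pdia6 follow as members that hold it and were not called (Hsp90b1 holds a further match on the other strand, not shown); the remaining UPR genes with a match, Calr, Canx and Derl3, were not called either. Capitals mark the element, which Creld2 carries on the other strand, and each stretch is read 5′ to 3′ along the gene. The stretches lie at chr2:34772000-34772068 (plus strand) for Hspa5, chr15:88819495-88819563 (plus) for Creld2, chr19:6046507-6046575 (plus) for Syvn1, chr14:118937802-118937870 (plus) for Dnajc3, chr10:86705613-86705681 (minus) for Hsp90b1 and chr12:17266466-17266534 (plus) for Pdia6.
Hspa5: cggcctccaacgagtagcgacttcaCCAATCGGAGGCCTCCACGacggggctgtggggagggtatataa
Creld2: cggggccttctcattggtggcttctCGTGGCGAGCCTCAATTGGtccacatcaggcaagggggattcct
Syvn1: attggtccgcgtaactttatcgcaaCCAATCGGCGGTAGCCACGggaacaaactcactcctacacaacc
Dnajc3: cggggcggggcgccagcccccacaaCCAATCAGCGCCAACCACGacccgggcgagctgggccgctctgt
Hsp90b1: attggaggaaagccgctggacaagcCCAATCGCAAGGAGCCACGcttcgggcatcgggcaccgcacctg
Pdia6: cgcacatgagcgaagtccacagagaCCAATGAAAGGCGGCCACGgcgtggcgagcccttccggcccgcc
A match is a description of these letters and not evidence that a factor binds there.

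Hspa5 (BiP), the main chaperone of the ER, was 1294, 1302 and 1713 in WT 1 to 3 against 583, 465 and 501 in KO 1 to 3. Its mean was 2.78 times as high in WT, and the difference was -1.47 ± 0.16 (limma, adjusted p = 0.00664). Dnajb9 (ERdj4), a cochaperone of BiP, varied little within either group, at 105, 104 and 108 in WT against 37.6, 39.8 and 34.7 in KO (-1.48 ± 0.10; adjusted p = 0.00285). Syvn1 (HRD1), the ubiquitin ligase of ER-associated degradation, was 144, 93.9 and 116 in WT against 52.6, 42 and 43.6 in KO (-1.32 ± 0.18; adjusted p = 0.0107). These 3 are the members called without each library, and in each the highest KO liver lay below the lowest WT liver.

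Creld2, a secreted ER stress protein picked here for its promoter, had the largest fall of the list, at 288, 248 and 306 in WT against 112, 53.5 and 51.1 in KO (-2.03 ± 0.29; limma, adjusted p = 0.0119). Herpud1, another degradation component, fell from a mean of 688 to 236. Xbp1, the transcription factor activated by IRE1, was 203, 294 and 272 in WT against 155, 77.8 and 106 in KO (-1.21 ± 0.26; adjusted p = 0.0265). All 3 sensors were among the falling members, Ern1 from 21.9 to 11.5, Eif2ak3 from 11.7 to 5.94 and Atf6 from 13.8 to 8.11 (chosen after their values were seen). Dnajc3, an inhibitor of the stress kinases, had the smallest fall among the 4 genes whose promoters are printed, at 84.1, 62.9 and 85.9 in WT against 55.4, 47.1 and 40.2 in KO (-0.69 ± 0.17; adjusted p = 0.0366). Hsp90b1, the ER form of HSP90, was 1099, 928 and 1374 in WT against 808, 519 and 712 in KO, which did not overlap but did not pass (-0.74 ± 0.21; adjusted p = 0.0520). Selk (selenoprotein K), the 1 member that rose, went from 110 to 157. The falling members numbered 19, 7 and 7 without KO 1, 2 or 3 and 9, 14 and 3 without WT 1, 2 or 3, with the median between -0.74 and -0.53.

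Neighbouring programs moved less or in other ways. Of 59 genes of ER translocation and vesicle transport 3 fell and 0 rose, Sec24d, Srpr and the entry that joins Fut11 and Sec24c, with a median of -0.10. In the integrated stress response directed by ATF4, 3 of 31 members rose and 3 fell, or 19.4% called, close to the 18.1% of all entries. Asns, asparagine synthetase, was 5.51, 12.4 and 3.58 in WT against 23.5, 16.2 and 17.8 in KO (1.44 ± 0.37; limma, adjusted p = 0.0414). Ddit3 (CHOP) rose from 9.20 to 14.6 and Sesn2 from 2.11 to 3.53, whereas Cebpb, Nars and Atf3 fell (the last pair named because the count is small). The group means of CHOP and BiP therefore went in opposite directions.

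**Figure D2:**
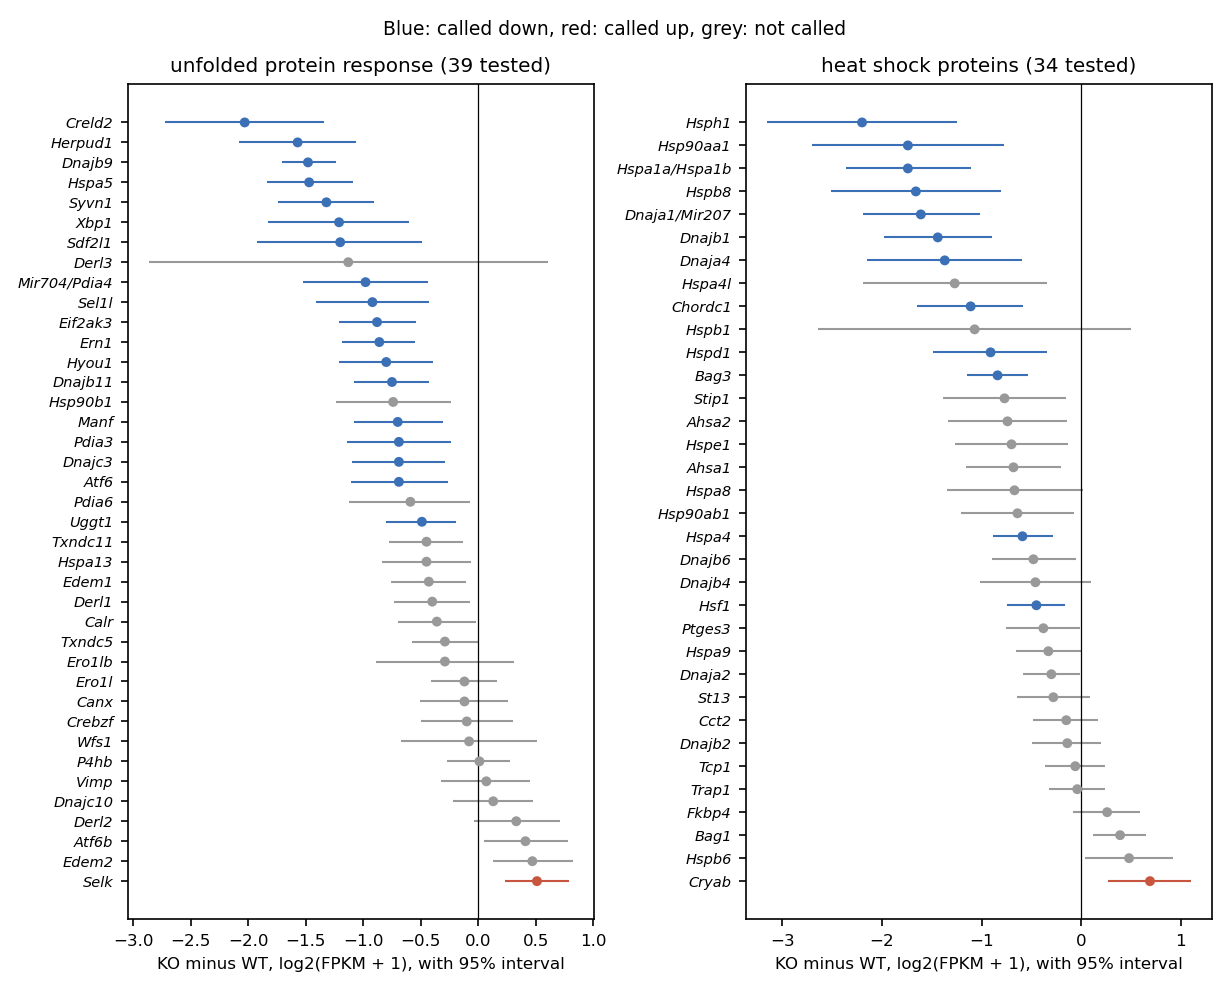
Difference between KO and WT on the log2(FPKM + 1) scale with its 95% interval for each tested member of the UPR and heat shock lists; blue points were called lower, the red ones higher and grey ones not called. In the UPR panel 18 of 39 members are blue, led by Creld2 at -2.03, and in the heat shock panel 12 of 34 are blue, led by Hsph1 at -2.2.

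Heat shock proteins of the cytosol and mitochondrion, chaperones known for their control by the factor HSF1, had 12 of 34 members falling, the mitochondrial Hspd1 among them, 1 rising and a median of -0.65. That is 38.2% called, against 18.1% of all entries. The stress-inducible HSP70 genes Hspa1a and Hspa1b are joined in the table and stand in it in a pair of rows, as some other names do; for each such gene the row with the higher mean over the 12 libraries was used. This row was 13.6, 15.6 and 23.2 in WT against 6.41, 3.11 and 4.19 in KO, a difference of -1.74 ± 0.27 (limma, adjusted p = 0.0131), and the other row went the same way without passing (-1.51, adjusted p = 0.0591). Its partner Dnajb1 (HSP40) was 27.2, 40.1 and 34.4 in WT against 16.5, 10.2 and 9.43 in KO (-1.44 ± 0.23; adjusted p = 0.0140). Bag3, a cochaperone that couples HSP70 to autophagy, went from a mean of 37.4 to 20.6 and the entry of Dnaja1 from 111 to 36.6. Hsph1, a nucleotide exchange factor of HSP70 and the largest fall of the list (chosen after its value was seen), went from 105 to 24.1. Cryab, a small heat shock protein, rose from 3.01 to 5.36, and the constitutive Hspa8 was not called (-0.67, adjusted p = 0.142). KO 1 was the highest KO library in 10 of the 12 falling entries. The falling members numbered 17, 5 and 4 without KO 1, 2 or 3 and 10, 4 and 0 without WT 1, 2 or 3.

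The IL-6 signaling chain was lower at several of its steps, from the receptor subunits to the feedback inhibitor. Of 41 tested genes of the acute phase response and its signaling 17 fell and 0 rose, with a median of -1.04. That is 41.5% called, against 18.1% of all entries. Il6ra, the receptor subunit that binds IL-6, was 21.2, 26.4 and 27.6 in WT 1 to 3 against 7.35, 5.98 and 2.17 in KO 1 to 3 (-2.19 ± 0.35; limma, adjusted p = 0.0137). Il6st (gp130), the shared signal transducer, was 29.1, 31.8 and 45.9 in WT against 17.8, 13.6 and 14.2 in KO (-1.16 ± 0.19; adjusted p = 0.0154). Socs3, the inhibitor that STAT3 induces, was 20.9, 23.3 and 33 in WT against 5.01, 3.71 and 1.5 in KO (-2.67 ± 0.33; adjusted p = 0.00912), and its other row in the table also fell (-1.26, adjusted p = 0.0402). The groups did not overlap in any of the 3, and Il6st and Socs3 were called without each library. Lifr, the partner of gp130 in the LIF receptor, fell from a mean of 93.7 to 34.1 and Stat3, the transcription factor of the pathway, from 79.4 to 34.6 (both named after their values were seen). The other Lifr row, with means of 2.23 and 0.882, was not called (-0.73, adjusted p = 0.122). Il1r1, the IL-1 receptor, was 21.3, 60.6 and 96 in WT against 17, 8.33 and 3.29 in KO (-2.51 ± 0.65; adjusted p = 0.0414).

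The acute phase proteins made downstream were far less even, and 2 libraries stood apart from their groups. Saa1 (serum amyloid A) was 260, 3458 and 7303 in WT 1 to 3 against 1419, 277 and 68.7 in KO 1 to 3, and it was not called (-2.64 ± 1.43; limma, adjusted p = 0.221). Serpina3n, a protease inhibitor of the same response, was 483, 1701 and 2113 in WT against 761, 320 and 296 in KO and was not called. For both genes WT 1 lay below KO 1, while WT 2 and WT 3 lay above every KO liver. Fgb, the fibrinogen beta chain, did separate the groups, at 4013, 6279 and 7006 in WT against 3394, 1838 and 1649 in KO (-1.37 ± 0.33; adjusted p = 0.0343). Orm3, an orosomucoid, fell from a mean of 14.3 to 2.28. Averaged over the 41 members and set against the WT mean, the list stood at -0.67, 0.19 and 0.48 in WT 1 to 3 and at -0.53, -1.37 and -1.69 in KO 1 to 3, so WT 1 and KO 1 crossed.

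Other values moved in the same libraries. Metallothionein Mt1, a metal-binding protein induced by cytokines and glucocorticoids, was 1312, 4755 and 5825 in WT against 1337, 52.2 and 49.4 in KO, and was not called (-4.44 ± 1.27; limma, adjusted p = 0.0519). Of 15 neutrophil markers 7 reached an FPKM of 1 in some liver, and their summed FPKM ran from 58 to 711 in WT and from 34.4 to 178 in KO. The neutrophil genes S100a8 (2.96 to 10.9 in WT, 3.76 to 21.1 in KO) and S100a9 (3.02 to 15 and 3.51 to 16.3) overlapped between the groups. Most of the sum of 711 therefore came from other members. Arntl (BMAL1), a core clock gene, was 1.28, 0.189 and 1.01 in WT against 0.403, 6.10 and 5.71 in KO. Nr1d1 (REV-ERB alpha), which represses it, was 48.6, 68.5 and 62.8 in WT against 44.4, 16.8 and 36.3 in KO. KO 1 thus lay with the WT livers for Arntl, and neither Arntl nor Nr1d1 was called (adjusted p = 0.195 and 0.0866). Of 30 clock genes and clock outputs 2 fell, Por (P450 reductase) and Tspan4, and 0 rose, whereas without KO 1 the numbers were 11 and 3. The labels give no time of day, and the part of these differences in the results on stress and acute phase genes was not tested. The falling members of the acute phase list numbered 19, 3 and 3 without KO 1, 2 or 3 and 14, 3 and 3 without WT 1, 2 or 3.

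**Figure D3:**
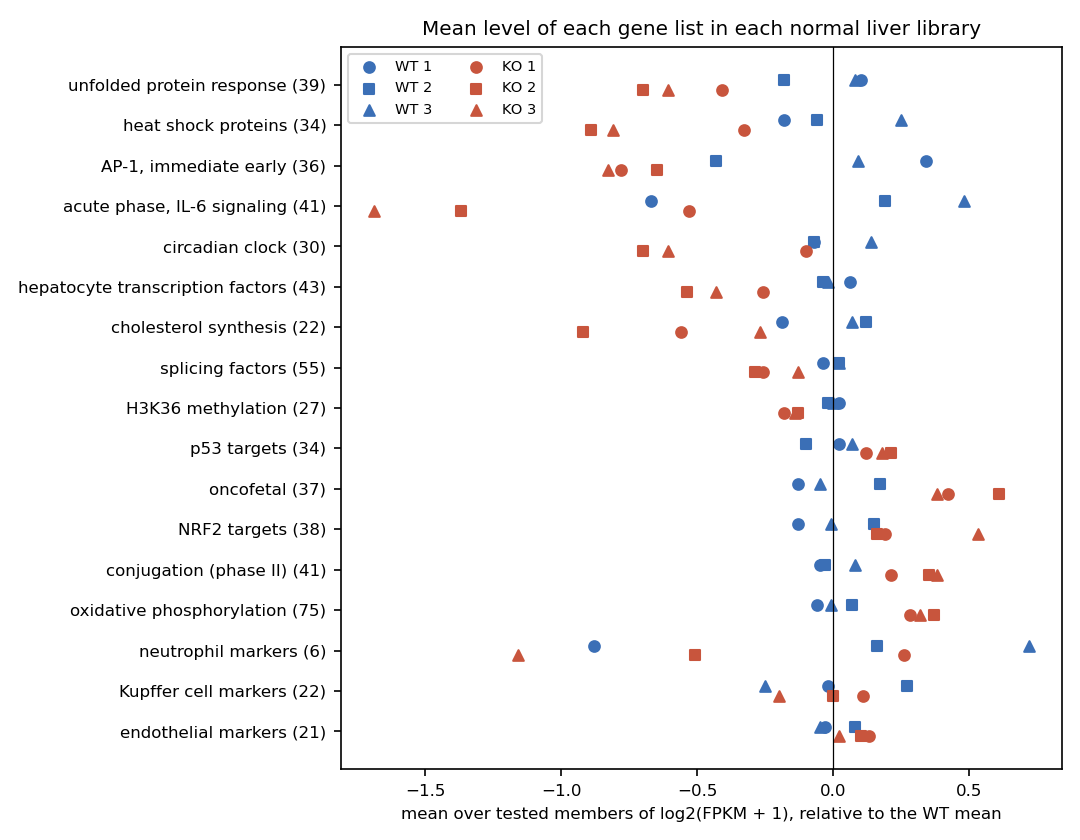
Mean over the tested members of 17 gene lists of log2(FPKM + 1) in each normal liver library, set against the WT mean, with WT in blue, KO in red and symbols for the replicate number. KO 1 (red circle) lies at -0.53 for the acute phase list, above WT 1 at -0.67, so these groups overlap. For the circadian clock KO 1 lies at -0.10, just below WT 1 and WT 2 at -0.07, and the groups do not overlap. The UPR, H3K36 methylation and oxidative phosphorylation lists are among the others in which all 3 KO livers lie apart from WT.

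Transcription factors of the immediate early and AP-1 class followed the same direction, with 11 of 36 lower, 2 higher and a median of -0.73. That is 36.1% called, against 18.1% of all entries. Junb was 87.5, 63.1 and 115 in WT against 30, 21.2 and 13.3 in KO (-2.02 ± 0.32; limma, adjusted p = 0.0136). Zfp36l2, which destabilizes AU-rich mRNAs, was 31.4, 19.5 and 30.7 in WT against 10.7, 9.50 and 9.28 in KO (-1.35 ± 0.19; adjusted p = 0.0117). Jun went from 32.9 ± 19.6 (SD, n = 3) to 9.06 ± 2.94 and passed narrowly (adjusted p = 0.0498). Fos ran from 1.33 to 40.2 in WT and from 0.535 to 3.47 in KO and was not called. The 2 entries that rose were Btg1, an antiproliferative gene, and the one that joins Mafg, Mir6936 and Sirt7. Falling members numbered 7, 4 and 3 without KO 1, 2 or 3 and 6, 8 and 0 without WT 1, 2 or 3.

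Of 44 genes around NF-kB and the TWEAK receptor 8 fell and 2 rose, or 22.7% called, not far from the 18.1% of all entries. Tnfrsf12a (Fn14), the receptor of TWEAK, was 55.5, 168 and 77.6 in WT against 9.24, 10.1 and 6.86 in KO (-3.24 ± 0.38; limma, adjusted p = 0.00796), and was called without each library. The chemokine gene Cxcl1 was 67.2, 176 and 247 in WT against 42.8, 14.2 and 4.49 in KO, with no overlap (-3.22 ± 0.77; adjusted p = 0.0345). Ccl27a rose from 3.05, 4.02 and 3.55 to 7.51, 7.63 and 7.58 (0.92 ± 0.13; adjusted p = 0.0113) and was called without each library, and Nfkbie, an inhibitor of NF-kB, was the other member to rise. Falling members numbered 9, 2 and 2 without KO 1, 2 or 3 and 7, 2 and 1 without WT 1, 2 or 3. The interferon response list had 6 of 44 members higher and 2 lower, or 18.2% called, close to the 18.1% of all entries. Psmb9 (15.4 to 31.8) and Psmb8 (27.5 to 47.2), subunits of the immunoproteasome, rose in mean FPKM. Its rising members numbered 2, 6 and 1 without KO 1, 2 or 3 and 0, 2 and 0 without WT 1, 2 or 3.

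Transcription factors that define the hepatocyte were lower in KO. Of 43 tested 12 fell and 0 rose, or 27.9% called against 18.1% of all entries, with a median of -0.29. Prox1, which sets and keeps hepatocyte fate, was 24, 22.8 and 29.2 in WT against 9.98, 9.86 and 9.06 in KO (-1.30 ± 0.13; limma, adjusted p = 0.00559). Hnf4a, the nuclear receptor at the centre of the hepatocyte network, was 234, 306 and 297 in WT against 179, 152 and 122 in KO (-0.89 ± 0.17; adjusted p = 0.0216). Bcl6, a repressor that takes part in male-biased liver expression, was 13.5, 19 and 10.8 in WT against 2.07, 2.95 and 2.34 in KO (-2.13 ± 0.21; adjusted p = 0.00559), while its lesser row, at an FPKM of 0.721 to 1.98, was not called. In the rows used the groups were apart for all 3, and Prox1 and Bcl6 were called without each library. Falling members numbered 14, 3 and 3 without KO 1, 2 or 3 and 5, 4 and 3 without WT 1, 2 or 3. Of 19 tested hepatocyte identity markers 3 fell, Hnf4a and Fgb among them, and 2 rose (Asgr1 and Ttr). Most of them, 14 of 19, lay below 0, with a median of -0.28. Their mean level was -0.06, -0.07 and 0.14 in WT 1 to 3 against -0.14, -0.29 and -0.22 in KO 1 to 3, with no overlap. Summed FPKM of the 20 listed markers ran from 50265 to 56568 in WT and from 43819 to 49945 in KO.

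Among nuclear receptors and their partners 5 of 40 fell and 2 rose, or 17.5% called, close to the 18.1% of all entries. Ppara, the receptor for fatty acids and fibrates, was 53.9, 41.2 and 48.5 in WT against 20.8, 14.3 and 15.6 in KO (-1.46 ± 0.17; adjusted p = 0.00800). It was called without each library. Ahr, the dioxin receptor, fell from a mean of 17.9 to 4.26, the coactivator Ncoa2 from 5.13 to 2.23 and Rxra, the common heterodimer partner, from 118 to 73.4. Esrra, a regulator of mitochondrial genes, rose from 7.75 to 16.1, and so did the membrane progesterone receptor component Pgrmc1 (771 to 1110). The xenobiotic receptors Nr1i2 (29.5 and 32.9) and Nr1i3 (77.1 and 91.4) were not called. Falling members numbered 7, 3 and 2 without KO 1, 2 or 3 and 5, 3 and 2 without WT 1, 2 or 3.

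Of 22 genes of the growth hormone and IGF axis 3 fell and 1 rose (18.2% called, against 18.1% of all entries), and of 23 female-biased genes 26.1% were called. Igf1 was 231, 211 and 218 in WT against 152, 116 and 118 in KO (-0.78 ± 0.13; limma, adjusted p = 0.0161), and Socs2, a target of growth hormone signaling, fell from a mean of 20 to 6.05, while the receptor gene Ghr (265 and 251) was not called. Of 23 female-biased genes 5 rose and 1 fell, against 9.33% of all entries higher. Cyp2b9, a P450 of female liver, was 2.35, 2.63 and 8.29 in WT against 13.9, 14 and 24.5 in KO (1.88 ± 0.41; adjusted p = 0.0279), and Fmo1, Cyp2a4, Abcd2 and Cyp39a1 were the others that rose. Of 29 male-biased genes 2 fell (Bcl6 and Susd4) and 2 rose (Serpina12 and the entry of Ugt2b5, Ugt2b37 and Ugt2b38). Female-biased members that rose numbered 4, 4 and 1 without KO 1, 2 or 3 and 2, 0 and 1 without WT 1, 2 or 3. The major urinary proteins, secreted pheromone carriers under growth hormone control, share sequence, so single values are uncertain. Mup9 was 3294, 2969 and 3380 in WT against 269, 196 and 61.2 in KO, and Mup5 was 30.9, 29 and 36.7 in WT against 2.98, 4.02 and 3.05 in KO, and both were called without each library (-4.43 and -2.93). The other 14 tested entries of the family were not called.

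Secreted complement and coagulation proteins had 11 of 55 members lower and 2 higher, or 23.6% called against 18.1% of all entries. F11, coagulation factor XI, was 32.6, 31.9 and 29.2 in WT against 17.4, 9.59 and 12.1 in KO (-1.24 ± 0.20; limma, adjusted p = 0.0141). Plg, plasminogen, went from a mean of 1222 to 724 and C8b, a subunit of the membrane attack complex, from 237 to 110. Mbl2, a mannose-binding lectin, and the joined entry of C1s1 and C1s2 rose, and the central factors C3 (2979 and 2964) and F2 (1097 and 1053) were not called. The fibrinogen chains counted here also stand in the acute phase list. Falling members numbered 16, 3 and 3 without KO 1, 2 or 3 and 11, 3 and 0 without WT 1, 2 or 3.

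**Figure D4:**
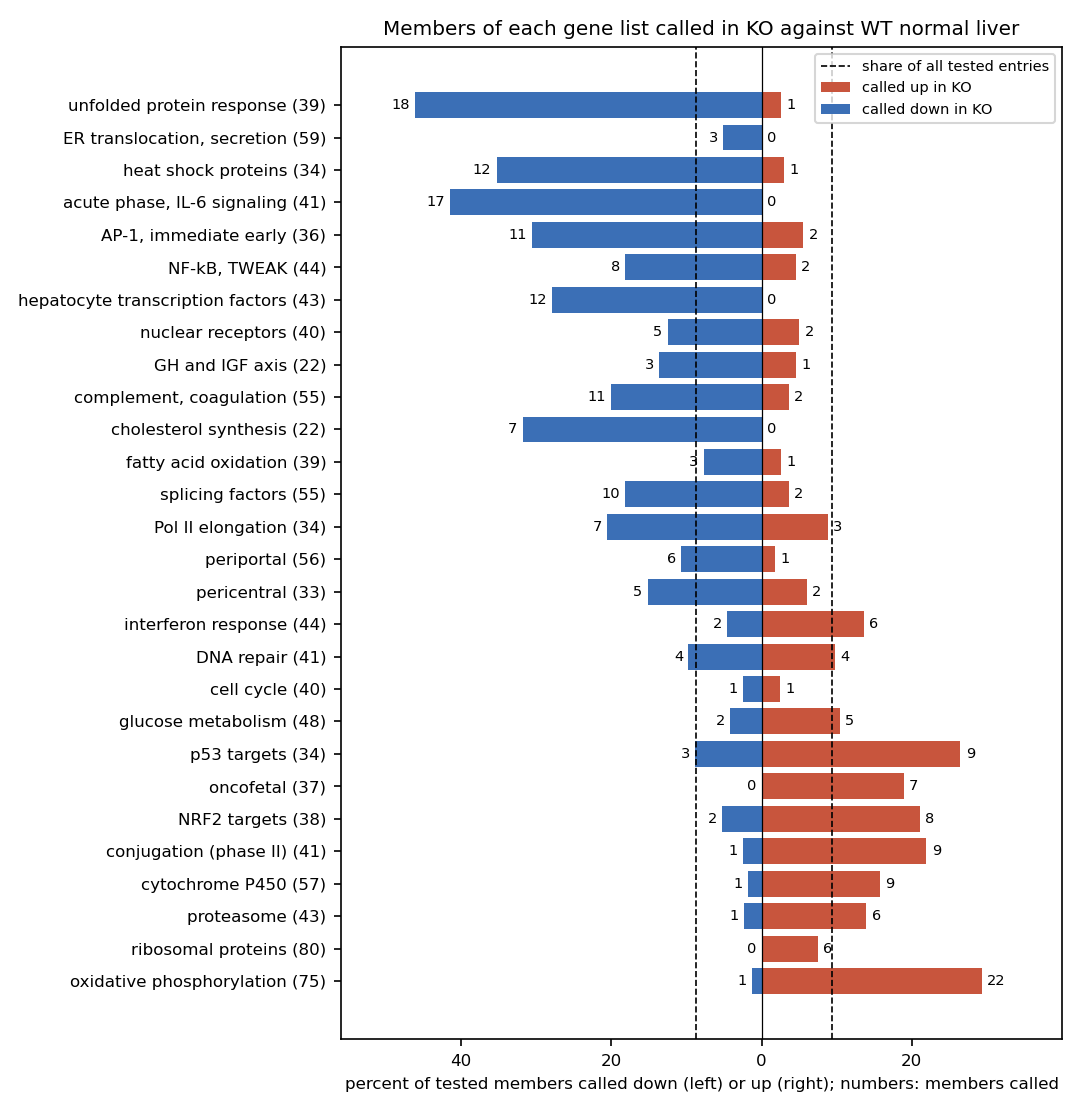
Percent of the tested members of 28 gene lists called lower (blue, to the left) or higher (red, to the right) in KO than in WT normal liver, with the number called beside each bar, the number tested in parentheses and dashed lines at the shares of all entries, 8.77% lower and 9.33% higher. The UPR, acute phase and heat shock lists have 18, 17 and 12 members lower, and oxidative phosphorylation has 22 of 75 higher.

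Cholesterol synthesis enzymes were lower, with 7 of 22 members falling, 0 rising and a median of -0.57. That is 31.8% called, against 18.1% of all entries. Idi1, isopentenyl diphosphate isomerase, was 29.4, 38.4 and 34 in WT against 10.3, 7.12 and 6.97 in KO (-1.95 ± 0.18; limma, adjusted p = 0.00442). Hsd17b7, of a later step, was 25, 23.9 and 23.2 in WT against 8.01, 7.36 and 11.3 in KO (-1.36 ± 0.16; adjusted p = 0.00837). Both were called without each library. Sqle, squalene epoxidase, was 53, 71.3 and 60.8 in WT against 19.4, 10.5 and 21.3 in KO (-1.84 ± 0.26; adjusted p = 0.0113), with no overlap. Srebf2, the transcription factor that drives the pathway, fell from 15.9 to 10.4. Falling enzymes numbered 6, 5 and 8 without KO 1, 2 or 3 and 6, 5 and 3 without WT 1, 2 or 3.

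De novo lipogenesis differed more among the KO livers than between genotypes. Fasn, fatty acid synthase, was 63.2, 41.1 and 70.6 in WT against 135, 52.1 and 728 in KO, and Srebf1, its transcription factor, was 20.5, 16.8 and 11.1 in WT against 21.1, 39.6 and 117 in KO. KO 3 was the highest library for both, and neither was called (limma, adjusted p = 0.212 and 0.0995). Of the 30 members 2 rose, Agpat2 (94.2 to 254) and Elovl1 (20.2 to 35.2), and 1 fell, the phosphatidate phosphatase Lpin2 (75.7 to 38). No member of this list was called without WT 1, WT 2 or WT 3, one at a time.

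Lipid handling showed single large changes in place of a common direction. Cidea, a lipid droplet protein of brown fat and fatty liver, was 0.570, 0.783 and 0.578 in WT against 9.27, 8.80 and 3.81 in KO (2.26 ± 0.29; limma, adjusted p = 0.00944). Fabp2, a fatty acid binding protein, was 96.1, 76.9 and 72.9 in WT against 151, 165 and 158 in KO (0.95 ± 0.13; adjusted p = 0.0113). Lrp1, a receptor for remnant lipoproteins, was 59.5, 56.5 and 55.1 in WT against 36.8, 34.7 and 32.6 in KO (-0.70 ± 0.10; adjusted p = 0.0119). All 3 were called without each library, among 30 lipid droplet and uptake genes with 4 higher and 2 lower. That is 20% called, close to the 18.1% of all entries. Of 39 fatty acid oxidation genes 3 fell and 1 rose, or 10.3% called, below the share of all entries. Cpt1a, which admits fatty acids to the mitochondrion, was 150, 145 and 147 in WT against 106, 59.9 and 43.9 in KO (-1.16 ± 0.29; adjusted p = 0.0376). The other falling entries were Ppara and the joined entry of Acot1 and Acot3.

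Bile acid genes had 3 of 27 members lower and 0 higher, close to the 8.77% of all entries. Slc10a2, the sodium-dependent bile acid transporter, was 35.7, 40 and 75.8 in WT against 9.79, 3.76 and 1.70 in KO (-3.23 ± 0.51; limma, adjusted p = 0.0136). Slco1a4 (7.93 to 3.01) and Cyp27a1, the sterol 27-hydroxylase (272 to 208), were the other members that fell, and the rate-limiting Cyp7a1 (11 and 9.55) was not called. Its other row, with means of 1.17 and 3.45, went the other way and was not called either (0.97, adjusted p = 0.101). Iron and metal genes had 4 of 31 higher and 3 lower, or 22.6% called, not far from the 18.1% of all entries. Slc40a1 (ferroportin), the iron exporter, was 39.7, 31.3 and 27.1 in WT against 59.5, 75.1 and 70.2 in KO (1.05 ± 0.16; adjusted p = 0.0136). Slc39a14 (ZIP14), which imports zinc and iron, was 104, 128 and 161 in WT against 59.5, 26 and 22.4 in KO (-1.95 ± 0.36; adjusted p = 0.0188). Hfe2, Tfrc and Fth1 also rose, and Ncoa4 and the joined entry of Mtf1 and Yrdc also fell.

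Enzymes of detoxification were more often higher than lower. Of 57 cytochrome P450 genes 9 rose and 1 fell (Cyp4a31), of 41 conjugating enzymes 9 rose and 1 fell (Ugt2a3), and of 38 targets of the antioxidant factor NRF2 8 rose and 2 fell. Over all entries 9.33% were higher and 8.77% lower. The shares called in either direction were 17.5%, 24.4% and 26.3% for these lists, against 18.1% of all entries. Gstm4, a glutathione S-transferase, was 42.9, 46.7 and 52.9 in WT against 102, 79.6 and 132 in KO (1.10 ± 0.19; limma, adjusted p = 0.0169). Members of the Gstm family share sequence, so single values are uncertain. Cyp2c68 (155 to 284), Cyp2d10 (427 to 660) and Ugt2b36 (417 to 685) rose in mean FPKM, while the abundant Cyp2e1 (4843 and 3788) and Cyp1a2 (450 and 377) were not called. Rising P450 genes numbered 8, 5 and 1 without KO 1, 2 or 3 and 3, 1 and 1 without WT 1, 2 or 3, and rising conjugating enzymes 9, 5 and 5 and then 5, 1 and 0. With each library's trend with transcript length removed, 3 of 34 placed conjugating enzymes rose, against 7 in the same entries before removal. The median of these enzymes was 0.01 after removal and 0.24 before.

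NRF2 targets split. G6pdx, glucose-6-phosphate dehydrogenase, was 2.23, 2.86 and 2.24 in WT against 28.4, 12.5 and 28 in KO (2.72 ± 0.30; limma, adjusted p = 0.00675), and was called without each library. Txn1 (thioredoxin) rose from a mean of 263 to 390 and Fth1 (ferritin heavy chain) from 1970 to 3171. Srxn1 (sulfiredoxin) was 40.6, 263 and 93.9 in WT against 10.9, 11.2 and 16.1 in KO (-2.90 ± 0.59; adjusted p = 0.0234), and Txnrd1 (thioredoxin reductase) fell from 89.2 to 46. Nfe2l2, the gene of NRF2 itself, was not called (27.9 and 30.6), nor was its classical target Nqo1 (3.72 and 5.98; adjusted p = 0.0581). Rising members numbered 8, 6 and 3 without KO 1, 2 or 3 and 6, 2 and 1 without WT 1, 2 or 3. In the pentose phosphate and nucleotide list G6pdx was the 1 member of 40 to rise. H6pd, the ER form of the same enzyme, was 172, 212 and 222 in WT against 111, 80.1 and 86.3 in KO (-1.12 ± 0.16; adjusted p = 0.0119), and Ctps, which makes CTP, was the other member to fall.

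Among genes of the fetal liver and of liver tumors 7 of 37 rose and 0 fell. That is 18.9% called, close to the 18.1% of all entries, of which 9.33% were higher. Afp, alpha-fetoprotein, was 1.70, 2.59 and 1.55 in WT against 42.2, 22.2 and 20.1 in KO (3.25 ± 0.29; limma, adjusted p = 0.00442), and its other row rose too, at 1.87, 1.1 and 1.3 in WT against 3.75, 4.31 and 4.95 in KO (1.14, adjusted p = 0.0113). Golm1 (GP73), a Golgi protein used as a serum marker of liver disease, was 1.16, 1.26 and 0.549 in WT against 4.37, 3.94 and 4.08 in KO (1.38 ± 0.17; adjusted p = 0.00837). The noncoding entries of Meg3 (joined with Mir1906-1 and Mir770) and Rian (joined with AF357359), imprinted RNAs of the Dlk1 to Dio3 region, were 4.19 ± 1.52 (SD, n = 3) and 1.13 ± 0.546 in WT and 28.8 ± 5.48 and 6.02 ± 0.931 in KO. Lgals1 (galectin 1), Robo1 and the joined entry of Mirg were the remaining members that rose, and Gpc3 was not called (0.646 and 1.29). From 5 to 7 members rose in each fit with 1 library left out, and Afp, Golm1, Lgals1 and the Meg3 and Rian entries were called in every one. The mean level of the list was -0.13, 0.17 and -0.05 in WT 1 to 3 against 0.42, 0.61 and 0.38 in KO 1 to 3, with no overlap. A member could pass the filter through KO livers or tumors alone. With an FPKM of 1 or more required in 3 or more of the 6 livers, 6 of 22 members rose. With a mean FPKM of 5 or more over the 6 livers, 3 of 10 rose and the median was 0.14.

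Targets of p53 had 9 of 34 members higher and 3 lower, or 35.3% called against 18.1% of all entries. Phlda3, which inhibits AKT, was 0.433, 0.700 and 0.685 in WT against 4.06, 3.51 and 4.23 in KO (1.62 ± 0.13; limma, adjusted p = 0.00343), and was called without each library. Bax, which opens the mitochondrial outer membrane in apoptosis, was 19.5, 22.8 and 18 in WT against 32.2, 38.4 and 37 in KO (0.81 ± 0.13; adjusted p = 0.0141). Bbc3 (PUMA), which activates BAX, rose from 1.19 to 7.50. Trp53 itself (20 and 13.5) and Cdkn1a, its cell cycle target (9.58 and 19.6), were not called, and Zmat3, Plk3 and Btg2 fell. Rising members numbered 7, 4 and 4 without KO 1, 2 or 3 and 5, 3 and 1 without WT 1, 2 or 3. A member could pass the filter through KO livers or tumors alone, and Phlda3 lay below an FPKM of 1 in every WT liver. With a mean FPKM of 5 or more over the 6 livers required, 3 of 19 p53 targets rose and 2 fell. Cell cycle genes gave 1 rise and 1 fall among 40, Rb1 (0.804 to 2.14, with another row not called) and Cdk6 (3.15 to 1.41), and Mki67 stayed at 0.363 or less in every liver. DNA repair gave 4 rises and 4 falls among 41, or 19.5% called, close to the 18.1% of all entries. Polb, DNA polymerase beta, was 14.4, 17.8 and 15.6 in WT against 28.1, 28.5 and 38.1 in KO (0.94 ± 0.15; adjusted p = 0.0145), and Xrcc1 and Ddb1 were also among those that rose. Lig3, Nbn, Ung and Ercc6 fell.

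Zonation of the liver lobule was described with genes of the pericentral and periportal hepatocytes, and neither list was tested as a whole. Of 33 pericentral genes 21.2% were called, against 18.1% of all entries. Oat, ornithine aminotransferase, was 561, 383 and 703 in WT against 136, 160 and 131 in KO (-1.90 ± 0.22; limma, adjusted p = 0.00796), and was called without each library. The entry of Glul (glutamine synthetase, joined with Mir8114) was 350, 364 and 356 in WT against 226, 212 and 240 in KO (-0.66 ± 0.10; adjusted p = 0.0136). Aldh3a2, Ahr and Cyp27a1 were the other pericentral members to fall, and 2 of the 33 rose, Sp5 among them, while Axin2, a target of Wnt signaling, was not called (0.967 and 1.53). Falling pericentral members numbered 3, 4 and 3 without KO 1, 2 or 3 and 3, 2 and 1 without WT 1, 2 or 3. Periportal enzymes had 6 of 56 lower and 1 higher (Asns), or 12.5% called against 18.1% of all entries. Aass, which starts lysine breakdown, went from a mean of 111 to 57.1, while the urea cycle enzymes Cps1 (958 and 668) and Ass1 (1611 and 1272) were not called. Falling periportal members numbered 4, 2 and 2 without KO 1, 2 or 3 and 1, 1 and 0 without WT 1, 2 or 3. In glucose metabolism 5 of 48 rose and 2 fell, or 14.6% called, below the 18.1% of all entries. Eno3, the muscle enolase, was 1.51, 2.2 and 1.39 in WT against 4.53, 4.63 and 6.39 in KO (1.20 ± 0.18; adjusted p = 0.0121), and Irs2, the insulin receptor substrate, fell from 5.96 to 1.31. Khk, Tpi1, Fbp1 and Ppp1r3c also rose and Pgm1 also fell.

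Among the largest changes of single genes outside these groups were Adgrv1, an adhesion receptor, and Prss8, a membrane protease. Prss8 was 1.75, 1.23 and 0.996 in WT against 25.3, 16.4 and 25.9 in KO (3.32 ± 0.21; limma, adjusted p = 0.00229). Adgrv1 was 1.20, 2.24 and 1.12 in WT against 31.6, 53.5 and 21 in KO (3.78 ± 0.33; adjusted p = 0.00442). Sucnr1, the succinate receptor, was 15.6, 9.94 and 15.9 in WT against 63, 84.4 and 100 in KO (2.50 ± 0.23; adjusted p = 0.00442). Hsd17b6, which acts on androgens and retinoids, was 66.1, 55.1 and 35.1 in WT against 228, 285 and 240 in KO (2.29 ± 0.23; adjusted p = 0.00559). The linker histone gene H1fx (0.294 to 5.41), the homeobox gene Barx2 (2.06 to 16.4), Tsc22d1 (15.2 to 99.7) and Parp16, an ER-anchored ADP-ribosyltransferase (9.92 to 112, with 235 in KO 2), complete, with G6pdx and Cidea, the 10 largest rises among named genes with a single row of their own, groups that do not overlap and a mean FPKM of 5 or more in the higher group. Among falls, Nrp1, a coreceptor of VEGF and semaphorins, was 19, 17.4 and 20.8 in WT against 3.03, 1.49 and 4.75 in KO (-2.37 ± 0.29; adjusted p = 0.00837), while the entry that joins it with Mir1903 was not called (-1.19, adjusted p = 0.0649). Ppl, a desmosomal plakin, was 11.2, 26.5 and 15.3 in WT against 1.21, 1.81 and 1.83 in KO (-2.76 ± 0.29; adjusted p = 0.00646). Slc41a2, a magnesium transporter, fell from 18 to 2.11.

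Short genes were higher and long genes lower in KO. Over 5 groups of equal size of the 10373 entries placed in GENCODE vM21 by gene span, the median difference went from 0.23 in the shortest to 0.08, 0.01, -0.08 and -0.10 in the longest. By transcript length it went from 0.25 to -0.17. Of entries with 20 or more exons 4.29% were called higher and 13.8% lower, and of those with 2 to 4 exons 15.9% higher and 6.24% lower. These medians are a description across genes, which are not replicates. Nuclear subunits of oxidative phosphorylation, mostly short genes, had 22 of 75 higher and 1 lower (Sdha). That is 30.7% called, against 18.1% of all entries. Ndufb3, a subunit of complex I, was 113, 114 and 108 in WT against 188, 203 and 162 in KO (0.71 ± 0.12; limma, adjusted p = 0.0145). Ndufa6 was 384, 356 and 384 in WT against 583, 563 and 562 in KO (0.60 ± 0.10; adjusted p = 0.0158), whereas Ndufs1, a large subunit of the same complex, was not called (53.4 and 47.2). With each library's trend with transcript length removed, 4 of 72 placed subunits rose in place of 21, and the median went from 0.34 to 0.06. For 75 placed ribosomal proteins the median of 0.23 became -0.04 and the number that rose 0 in place of 6, and Fau (324 to 485) and Rpl41 (974 to 1458) are among the 6. The UPR median moved from -0.59 to -0.50 under the same step, that of cholesterol synthesis from -0.62 to -0.74 and that of the acute phase list from -1.05 to -1.07.

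**Figure D5:**
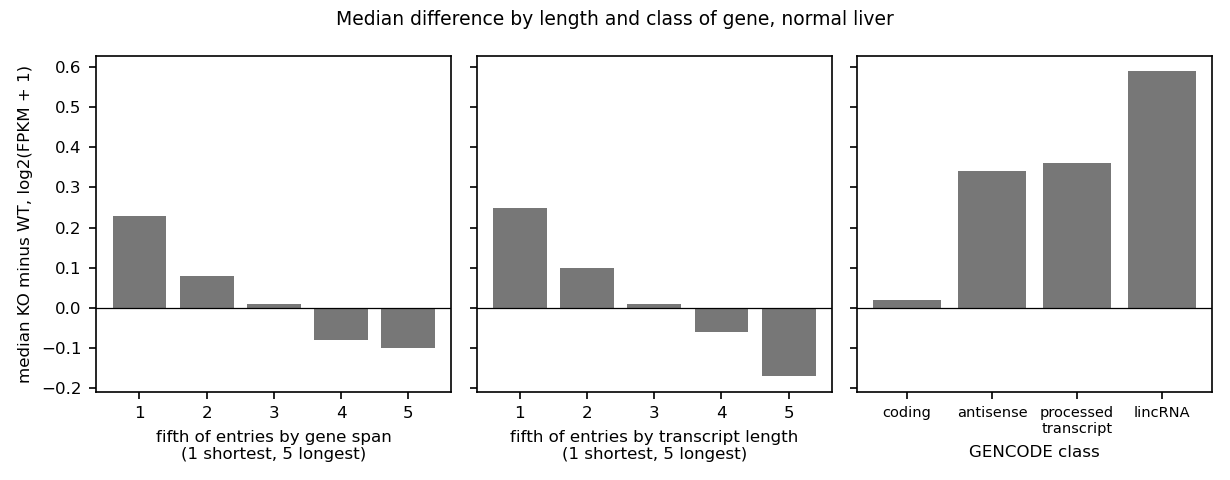
Median difference between KO and WT on the log2(FPKM + 1) scale over 5 equal groups of the placed entries by gene span and by transcript length, and by GENCODE class of gene. The median goes from 0.23 in the shortest group by span to -0.10 in the longest, and it is 0.59 for lincRNA entries against 0.02 for protein-coding genes.

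Long noncoding RNA entries were more often higher. Of 62 entries that GENCODE classes as lincRNA 24 rose (38.7%) and 3 fell, with a median of 0.59, against 8.68% of protein-coding genes higher. An entry could pass the filter through the KO livers alone, and some rises lay near the floor, as for 2610035D17Rik (0.104 to 1.09). With a mean FPKM of 5 or more over the 6 livers required, 8 of 19 lincRNA entries rose and 1 fell, with a median of 0.6. By the same filter 654 of 6105 protein-coding genes rose. Antisense entries had 15 of 65 higher and 1 lower, and the libraries do not keep the strand, so reads of an antisense gene cannot be told from those of its partner. Lppos (7.51 to 16), Snhg6, a host gene of small nucleolar RNAs (14.7 to 30.3), Bvht (0.503 to 1.88), Jpx, a gene of the X inactivation centre (1.30 to 2.27) and Snhg18 (0.389 to 0.889) are the named lincRNA genes that rose, chosen after their values were seen. After removal of the length trend 14 of the 62 rose, and their median was 0.33. They numbered 25, 14 and 13 without KO 1, 2 or 3 and 15, 11 and 5 without WT 1, 2 or 3.

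Markers of other cell types are given by list. Of 22 tested Kupffer cell and macrophage markers 1 rose, the joined entry of Ly6a and Ly6c2, and none fell. Clec4f, which marks resident Kupffer cells, was 37 to 51.5 in WT and 32.1 to 48.6 in KO. Of 21 endothelial markers 0 were called by limma and 7 had an unadjusted p below 0.05, a level that 37.6% of all entries reached, and the sinusoidal marker Stab2 was 11.1 to 16.3 in WT and 13.5 to 14.3 in KO. Stellate cell genes had 2 of 26 higher (Dcn and Colec11) and 2 lower (Col4a1 and Timp3), with Lrat, the defining gene of quiescent stellate cells, at 1.29 to 1.62 in WT and 1.85 to 2.89 in KO and not called. Of 20 cholangiocyte and progenitor genes 2 rose (Slc4a2, 6.61 to 12.2, and St14) and 1 fell (Pkd2), with a median of 0.46 and 16 of 20 above 0, and Slc4a2 was called without each library. The shares called were 15.4% of stellate and 15% of cholangiocyte genes, against 18.1% of all entries. Without KO 1, 7 of 26 stellate and 7 of 20 cholangiocyte genes rose. Summed FPKM ran from 412 to 639 in WT and 437 to 567 in KO for 23 Kupffer markers, from 252 to 284 and 274 to 300 for 22 endothelial markers, from 161 to 238 and 218 to 333 for 31 stellate genes and from 564 to 1446 and 482 to 639 for 24 cholangiocyte genes. The cholangiocyte genes Krt19 and Epcam were at 5.54 and 2.75 at most, so other members made up nearly all of the cholangiocyte sum. Of 22 fat, muscle and pancreas genes 5 reached an FPKM of 1 in some liver, and their sum of 1785 to 4601 was nearly all Car3, which hepatocytes express. The defining Adipoq, Ckm and Cpa1 were at 0.0471, 0.0594 and 0 at most. In bulk tissue, fewer cells of a type and less RNA per cell cannot be told apart.

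Whether the KO effect differed in tumors was tested as an interaction over all 12 libraries, the difference KO minus WT in tumors less that in normal liver. It was called for 243 of 11671 entries (2.08%), 134 of them above 0. The number was 7 to 1368 when 1 of the 12 libraries was left out, lowest without WT normal liver 2 and highest without KO tumor 3, so it rests on single libraries. It was 22 and 9 without KO normal liver 2 or 3, 10 without WT normal liver 3, 96 without KO tumor 1 and 29, 18 and 370 without WT tumor 2, 3 or 1. Of the genes described above, Prox1 (1.55, limma adjusted p = 0.0238) and Socs3 (3.26, adjusted p = 0.0146) had KO effects in tumors that differed from their falls in normal liver. Hspa5 (0.24, adjusted p = 0.684), Dnajb9 (0.35, adjusted p = 0.378) and Idi1 (-0.72, adjusted p = 0.0965) were not shown to differ between the tissues. Neither was Setd2 (0.48, adjusted p = 0.241).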

How the data were processed

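Poly(A) RNA of 6 normal livers and 6 liver tumors was sequenced from unstranded libraries (labels' protocols). The authors deposited FPKM values per gene name, and per the submitters' processing notes TopHat2 2.1.1, Cufflinks 2.2.1 and the mm10 build were used. The files hold no read counts, so depth is unknown and count tests and counting intervals were not possible. Of 24553 entries per table, 600 join several names and 865 repeat a name. Entries with an FPKM of 1 or more in 3 or more of 12 libraries were analyzed as log2(FPKM + 1) with limma 3.58.1 in R 4.3.3 (empirical Bayes with a variance trend, Benjamini-Hochberg adjustment over all 11671 entries, two-sided). The 6 livers were fitted alone, and 12 libraries for the difference between tissues; the fit was tested on simulated data. The comparison and the 54 gene lists were chosen with earlier results of these data known. Named genes were Setd2, the 10 largest rises and 10 largest falls (groups apart, a mean FPKM of 5 or more, a single row and name), up to 4 called members per list with the smallest adjusted p, textbook members, and 4 tissue differences each way. Members named to complete a count of 5 or fewer, and other genes outside this rule, were chosen after their values were seen. Gene positions are from GENCODE vM21 (GRCm38) and promoters from RefSeq. Alternatives covered pseudocounts, filters, scalings, the length trend, the fit, a replicate block and leaving out each library. A few genes within this rule are left out.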

Additional observations from a re-analysis of the deposited data

Results flagged for a closer look

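For 8 genes the KO effect differed between tumor and normal liver in the test of the difference itself (limma interaction over 12 libraries), the 4 highest and 4 lowest values among genes called in that test with a single row in the table, a mean FPKM of 5 or more in a normal liver group and normal liver groups that did not overlap. Socs3, with a repeated row, falls outside this choice. The values are KO minus WT in tumors less KO minus WT in normal liver, on the log2(FPKM + 1) scale. Where the KO values lay below WT in normal liver, the difference was 3.72 for Srxn1 (adjusted p = 0.0357), 3.63 for Tnfrsf12a (adjusted p = 0.0189), 3.26 for Fkbp5, a cochaperone of steroid receptors (adjusted p = 0.0365) that was not called in normal liver alone (-1.76, adjusted p = 0.0642), and 3.11 for Ppl (adjusted p = 0.0278). For genes called higher in KO normal liver, it was -3.72 for the serpin Serpina12 (adjusted p = 0.0275), -3.52 for Sucnr1 (adjusted p = 0.0451), -2.85 for Prss8 (adjusted p = 0.012) and -2.56 for Bbc3 (adjusted p = 0.0278). The number of genes called in this test depends on single libraries, as given above.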

How the results depend on the processing

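Of the alternatives to the fit of the 6 livers, pseudocounts of 0.1 and 5, 3 scalings, other filters, other variance settings and removal of the length trend gave 1430 to 2183 called entries against 2113. Without a filter on low FPKM the number was 1355, and with all 12 libraries in 1 fit it was 1144. Leaving out 1 liver gave 240 (without WT 3) to 1964 (without KO 1). Of 220 named genes, 34 (without KO 1) to 141 (without WT 3) lost their call with 1 liver left out, and 148 with the block. Whether replicate numbers pair the livers cannot be told from 3 libraries a group. Correlations of deviations from the group means were -0.12, 0.0155 and -0.276 for the same number. For different numbers they ran from -0.0808 to 0.206. With a replicate block 153 entries were called, and Setd2 stayed at -1.05 without passing. The difference between tissues was called for 56 entries without the filter, 1 with the block and 7 to 1368 with 1 library left out. Setd2 gave no value under the filter on a mean FPKM of 5. The comparison of placed entries without removal of the length trend, with 1980 calls against 1430 after removal, was added after the data were seen. Differences of uncalled genes near 0 changed sign: C3 was 0.07 with quantile normalization and 0.05 with the length trend removed. With 1 liver left out C3 ran from -0.31 to 0.21, Cyp7a1 from -0.37 to 0.05, Nfe2l2 from -0.12 to 0.21, Nr1i2 from -0.08 to 0.24, Nr1i3 from -0.22 to 0.43 and Stab2 from -0.10 to 0.16. Where fewer libraries or other entries were not the change itself, the cause was not tested. The unknown read depth limits statements on entries with low FPKM.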
